A study of Mus musculus with 24 samples.

Results

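CD11b+ cells of the spleen were compared with CD11b+ cells of the bone marrow in wild-type mice, on 4 spleen arrays and 4 bone marrow arrays out of the 24 arrays of the series. The members were all arrays whose genotype label was WT, with every gene of the array taken, and a spleen array and a marrow array of the same condition formed a pair. The 4 pairs were control, MI 1 week, MI 2 weeks and MI 4 weeks, where MI is myocardial infarction. The study followed CD11b+ myeloid cells of WT mice, of HDC-KO mice that lack histidine decarboxylase (the enzyme that makes histamine) and of STAT6-KO mice that lack a transcription factor of interleukin 4 signalling. The WT mice were males of the Balb/C background, 10 weeks old, and carried no altered allele. Each array held RNA from the CD11b+ cells of 5 pooled mice, so an array was 1 pool and each condition had 1 array in each tissue. The sources used here do not say whether both tissues of a pair came from the same mice, nor how the cells of the arrays were sorted. The error of the WT test therefore rests on the spread of the spleen-marrow difference over 4 pairs of pools. The fit draws each gene's spread towards a value shared by all genes, so a standard error is not that of the 4 pairs alone. An effect of time after MI cannot be told apart from the difference between pools. Each array slide held the arrays of 1 tissue only among the WT arrays, so tissue and slide cannot be told apart in them either.

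CD11b, encoded by Itgam, is the alpha chain of the integrin Mac-1, which pairs with the beta chain CD18 (Itgb2) and lets myeloid cells adhere, migrate and take up complement-coated particles. In the marrow, cells that carry it are mostly neutrophils and monocytes, from forms that still divide and fill their granules to forms ready to leave. In the spleen, CD11b is also found on monocytes held in reserve, on part of the dendritic cells and macrophages, and on subsets of natural killer and B cells. Granule proteins are made in sequence during neutrophil maturation, those of the azurophil (primary) granules first, those of the specific and gelatinase granules later. The transcripts of a granule class therefore mark a stage of maturation. In a pool of cells, fewer cells of a type and less RNA per cell of that type cannot be told apart.

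A level is given throughout as log2 of the processed probe signal minus the 75th percentile of its array, so that 0 is the 75th percentile and 1 unit is a 2-fold change; levels of different probes cannot be set against each other. A difference is the spleen level minus the marrow level on the same log2 scale. Of 32451 genes on the array, 26244 entered the test (limma with the pair as a block). At an adjusted p under 0.05, 3266 genes (12.4%) were higher in spleen and 4202 genes (16%) were higher in marrow, together 28.5% of the genes tested. By a fold over 2 as well, 2132 were higher in spleen and 2400 in marrow, and by a fold over 16, 66 and 10. The 4 spleen levels all lay above the 4 marrow levels for 13.1% of the genes tested and all below them for 18.3%. The median difference over all genes was -0.16, with the 10th percentile at -1.01 and the 90th at 0.91, and the median standard error was 0.22. With background correction by normexp the median difference over all genes moved to -0.30, and under the other scalings tried it was -0.15 to -0.07. The count depended on the pairs: without MI 2 weeks, 1559 genes were higher in spleen and 1404 in marrow, without MI 4 weeks 1869 and 1870, without MI 1 week 2618 and 2704, and without the control pair 2614 and 3327. Levels of 2 arrays of the same tissue correlated across genes at 0.966 to 0.987 (Pearson's r), and those of a spleen and a marrow array at 0.923 to 0.962. The 75th percentile of the signal was 1589 to 1735 on the spleen arrays and 967.1 to 1784 on the marrow arrays, and no spot was flagged as saturated. Whether the signal of the brightest probes flattened below saturation, which would shrink their differences, was not tested.

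**Figure D1:**
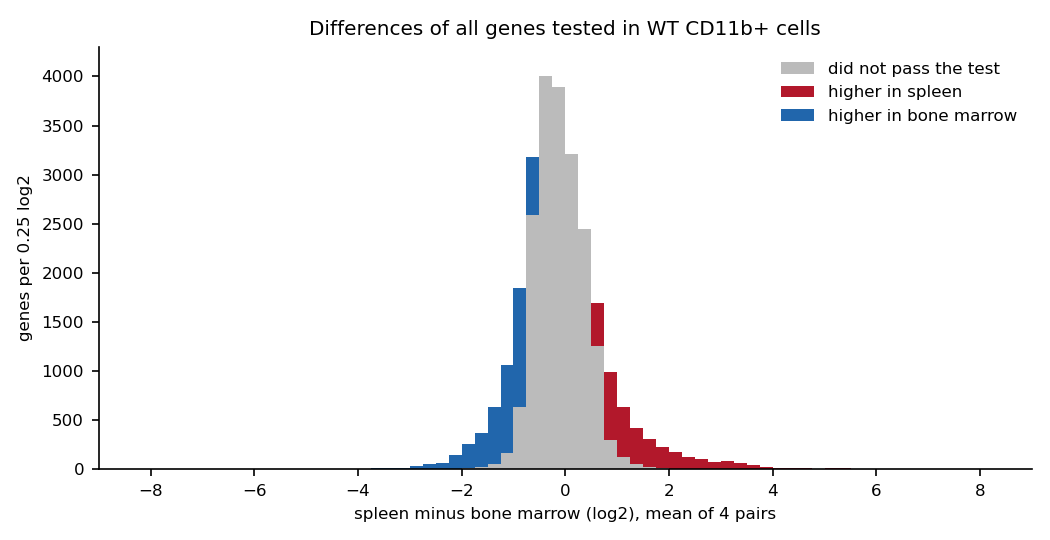
Number of tested genes (vertical axis) by spleen minus marrow difference on the log2 scale (horizontal axis), for all 26244 genes and, in the filled parts, for the 3266 genes called higher in spleen and the 4202 called higher in marrow. The middle of the distribution lies just left of 0, at -0.16, and past a 16-fold difference the right tail holds 66 called genes and the left tail 10.

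Both chains of Mac-1 lay above the 75th percentile of the signal on all 8 arrays and were higher in marrow. The level of Itgam was 3.92, 4.83, 4.30 and 4.52 on the spleen arrays (here and throughout in the order control, then 1, 2 and 4 weeks after MI) and 5.09, 5.67, 5.29 and 5.59 on the marrow arrays. Every marrow array lay above every spleen array, with a difference of -1.02 ± 0.17 (standard error of the fit, n = 4 pairs) and an adjusted p of 0.0084, 2.03-fold higher in marrow. The other probes of Itgam gave larger differences, -1.87 and -1.44. Itgb2, the CD18 chain, differed by -1.17 ± 0.20 (adjusted p = 0.0085), again without overlap. The alpha chains that pair with CD18 on macrophages and dendritic cells went the other way. Itgax, which encodes CD11c, was at 3.21, 2.95, 2.60 and 2.92 in spleen and at 1.18, 0.63, 0.39 and 0.57 in marrow, 4.67-fold higher in spleen (adjusted p = 0.0012). Itgad, which encodes CD11d, was at 4.82, 3.30, 3.41 and 3.44 in spleen against 1.05, -0.13, 0.34 and -0.38 in marrow, 11.5-fold higher in spleen (adjusted p = 0.00075). The 4 spleen levels of both genes lay above the 4 marrow levels, and that of Itgad was highest on the spleen control array. Itgal, the CD11a chain, differed by 0.13 ± 0.17 and did not pass the test, and Itgb7 by 0.64 ± 0.19 (adjusted p = 0.051). Itga4 and Itgb1, which form the VCAM1 receptor VLA-4, were 1.66-fold and 1.67-fold higher in spleen, and both calls were lost when any 1 pair was left out. Of the 8 integrin genes tested, 4 were higher in spleen and 2 in marrow, and without any 1 pair 2 passed in spleen.

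**Figure D2:**
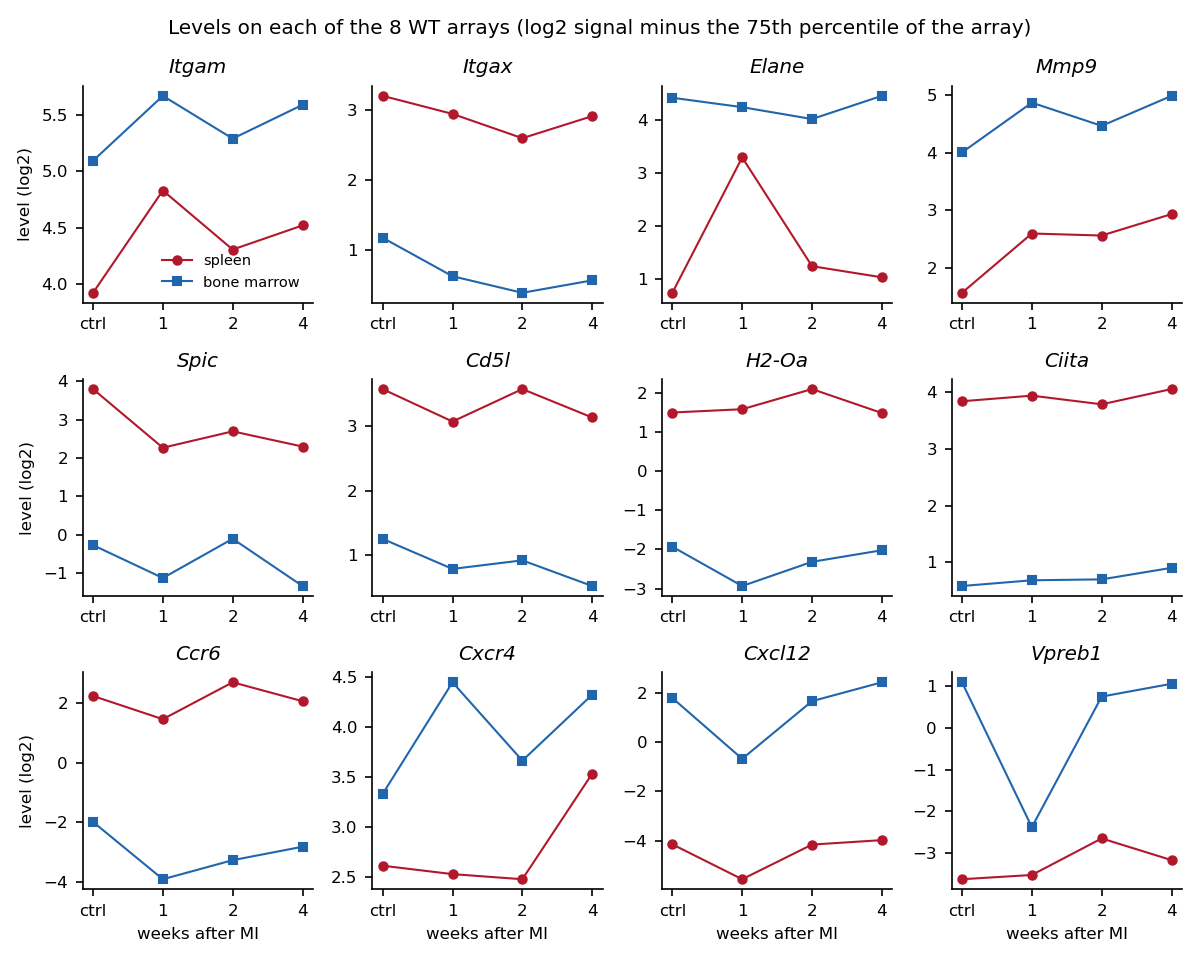
Levels of 12 genes on the 8 WT arrays (vertical axes, log2 signal minus the 75th percentile of the array, with a scale of its own in each panel) by condition (horizontal axes, control and weeks after MI), spleen in red circles and bone marrow in blue squares. The 2 lines do not cross in any panel, and the marrow line of Vpreb1 drops on the 1-week array.

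Genes of azurophil granules showed the largest median difference of the neutrophil lists, and all but Ctsc were higher in marrow. Elane, which encodes neutrophil elastase, was at 0.74, 3.29, 1.24 and 1.03 on the spleen arrays and at 4.41, 4.24, 4.01 and 4.45 on the marrow arrays. The marrow levels were nearly even, whereas the spleen array of 1 week lay about 2 units above the other spleen arrays. The difference was -2.70 ± 0.45, 6.5-fold higher in marrow (adjusted p = 0.0085). Mpo, which encodes the myeloperoxidase that makes hypochlorous acid, was at 2.47, 4.04, 2.69 and 2.82 in spleen and at 5.41, 4.57, 5.00 and 5.42 in marrow, 4.28-fold higher in marrow (adjusted p = 0.013). Prtn3 (proteinase 3) and Ctsg (cathepsin G), serine proteases of the same granule, were 5.54-fold and 4.78-fold higher in marrow, and Ms4a3, a membrane protein of granulocyte and monocyte progenitors, 3.08-fold. The spleen array of 1 week was the highest of the 4 spleen arrays for all 5 of these genes. Ctsc, which encodes the protease that activates these enzymes, was 1.53-fold higher in spleen, a call lost without any 1 pair. The median difference of the 6 azurophil granule genes was -2.18, against -0.16 over all genes; 5 were higher in marrow and 1 in spleen, and without MI 2 weeks or MI 4 weeks Elane and Prtn3 alone passed in marrow.

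Most genes of the specific and gelatinase granules were higher in marrow too. Mmp9, which encodes the gelatinase that cuts denatured collagen, was at 1.57, 2.60, 2.56 and 2.93 in spleen and at 4.00, 4.87, 4.46 and 4.98 in marrow, without overlap. The difference was -2.16 ± 0.18, 4.48-fold higher in marrow (adjusted p = 0.0014). Mmp8, the neutrophil collagenase, was 2.75-fold higher in marrow (adjusted p = 0.0036), Cd177, a surface glycoprotein of neutrophils, 5.59-fold (adjusted p = 0.0023) and Ceacam10 4.63-fold (adjusted p = 0.0024). For Cd177 the spleen control array was lowest, at -1.04, against 1.16, 0.32 and 0.26 after MI. Ngp (neutrophilic granule protein) was 2.08-fold, Lcn2 (the iron-scavenging protein lipocalin 2) 2.12-fold, Pglyrp1, which binds bacterial peptidoglycan, 3.2-fold and Itgb2l, a beta integrin of late neutrophil precursors, 3.53-fold higher in marrow. The remaining 4 genes did not pass the test. Ltf (lactoferrin) differed by -0.40 ± 0.19, Camp (the cathelicidin precursor) by -0.15 ± 0.21, Chil3 by -0.41 ± 0.18 and Hp (haptoglobin) by -0.40 ± 0.18, and their levels overlapped between the tissues. The marrow levels of Camp were 5.835, 6.66, 5.925 and 6.62. They were highest on the 1-week and 4-week arrays, whose 75th percentiles were the lowest of the marrow arrays (1109 and 967.1). Whether signals this bright were flattened was not tested. The list counted 8 of 12 genes higher in marrow, with a median difference of -1.27. The calls of Itgb2l, Lcn2 and Pglyrp1 were lost without MI 4 weeks, those of Itgb2l and Ngp without MI 2 weeks and that of Lcn2 without the control pair.

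The genes of mature neutrophils had smaller fitted differences, and whether a flattened signal of the brightest probes had a part in this was not tested. S100a8 and S100a9, the calprotectin subunits that make up much of the cytosolic protein of neutrophils, were at 5.73 to 6.03 and 5.85 to 6.08 in spleen and at 5.82 to 6.52 and 6.03 to 6.80 in marrow. Neither passed the test, with differences of -0.22 ± 0.19 and -0.36 ± 0.20, nor did Csf3r, the receptor for the granulocyte growth factor G-CSF (-0.17 ± 0.19), or Cxcr2, the chemokine receptor with which neutrophils leave the marrow (-0.46 ± 0.26). In the same list, Mmp25, a membrane-bound protease of neutrophils, was at -0.61, 0.77, 0.11 and 0.68 in spleen against 2.23, 3.14, 2.74 and 3.06 in marrow. That was a 5.88-fold higher level in marrow with no overlap (adjusted p = 0.00091). The formyl peptide receptors Fpr1 and Fpr2, which sense bacterial peptides, were 3.36-fold and 2.45-fold higher in marrow, the activating receptor Trem1 2.31-fold, the fungal and necrosis sensor Clec4e 1.71-fold and the secreted factor Retnlg 1.64-fold. In all, 6 of 13 genes were higher in marrow and 7 did not pass, with a median difference of -0.71, and the calls of Retnlg and Clec4e were lost without any 1 pair and that of Trem1 without MI 2 weeks or MI 4 weeks.

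The phagocyte NADPH oxidase, which turns oxygen into superoxide in the phagosome, had 5 of its 6 genes higher in marrow. Ncf1, the cytosolic organiser p47phox, was at 0.91, 3.01, 2.19 and 1.43 in spleen against 3.47, 4.19, 3.99 and 4.26 in marrow, without overlap and 4.29-fold higher in marrow (adjusted p = 0.0055). Cybb, the catalytic chain gp91phox, was 1.88-fold, Ncf4 (p40phox) 1.54-fold and the small GTPase Rac2 2.04-fold higher in marrow, while Cyba, the partner chain p22phox, differed by -0.49 ± 0.17 (adjusted p = 0.076). The other probe of Cyba gave a difference of -1.07, with the spleen level higher in no pair. The count was 3 without the control pair and 2 without MI 2 weeks or MI 4 weeks, and Ncf1 alone kept its call with any 1 pair left out. Among 12 Toll-like receptor genes and their co-receptors, 3 were higher in spleen and 2 in marrow, against 12.4% and 16% of all genes. The median difference was -0.17, close to the -0.16 of all genes. The endosomal receptors for RNA Tlr3 and Tlr7 were 5.66-fold and 2.47-fold higher in spleen, and Tlr1, a partner of Tlr2 for lipopeptides, 1.87-fold, a call that held only without the control pair. Tlr5, the flagellin receptor, was 3.27-fold and Tlr2 1.72-fold higher in marrow, the latter call lost without any 1 pair. Tlr4, the receptor for endotoxin, differed by -0.13 ± 0.20 and did not pass the test.

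Genes of dividing cells had lower fitted levels in spleen through most of the list, few of them passed the test, and the gap between the tissues differed between pairs. Top2a, the topoisomerase that untangles replicated DNA, was at -1.69, -0.55, -0.75 and -1.25 in spleen and at 0.25, -0.08, 0.64 and 0.11 in marrow, 2.44-fold higher in marrow with no overlap (adjusted p = 0.017). The mitotic cyclins Ccnb1 and Ccnb2 and the S to G2 cyclin Ccna2 were 2.26-fold, 2.14-fold and 2.13-fold higher in marrow, and Cdc20, which activates the complex that ends metaphase, 2.06-fold. Mki67, the proliferation antigen, was at 1.64, 3.47, 2.72 and 2.54 in spleen against 4.12, 3.70, 3.89 and 3.36 in marrow and did not pass (adjusted p = 0.055). The spleen control array held the lowest level of all 8 arrays for Mki67, Ccnb1, Ccnb2, Ccna2 and Cdc20. The helicase subunits Mcm2 to Mcm7 and Pcna, which act in S phase, did not pass, with differences between -0.97 (Mcm5) and 0.14 (Mcm4). Of 20 cell cycle genes, 5 were higher in marrow, not far from the 16% of all genes, and 15 did not pass, with a median difference of -0.77. By pair, the median was -1.85 in the control pair and -0.13, -0.61 and -0.78 at 1, 2 and 4 weeks after MI, and without the control pair 1 gene passed and without MI 2 weeks or MI 4 weeks 0. Calls of Ccna2, Ccnb1, Ccnb2 and Cdc20 also ended under other scalings of the arrays.

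Progenitor genes did not move together. Cd34, a surface marker of early progenitors and of endothelium, was at -0.92, -2.71, -2.21 and -1.64 in spleen and at 1.12, -1.47, 0.50 and 0.39 in marrow, 4.01-fold higher in marrow (adjusted p = 0.0041). The levels overlapped only through the marrow array of 1 week. Myb, a transcription factor of immature blood cells, was 2.87-fold higher in marrow without overlap, and Sox4 2.45-fold, both lost without MI 2 weeks or MI 4 weeks and Sox4 also without the control pair. Kit, the stem cell factor receptor that mast cells also carry, was 2.73-fold higher in spleen (adjusted p = 0.0093), at 0.78, -0.09, -0.33 and 0.32 against -0.79, -2.06, -0.999 and -1.28. Hoxa9 and Meis1, which keep progenitors from differentiating, differed by -0.05 ± 0.25 and 0.15 ± 0.26. Of 8 genes, 3 were higher in marrow and 1 in spleen, against 16% and 12.4% of all genes. Without MI 2 weeks or MI 4 weeks 1 passed in marrow, and the median was -0.28.

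Most transcription factors of the myeloid lineage were higher in spleen, and 2 were higher in marrow. Cebpe, which drives the late granule programme of neutrophils, was at 3.90, 5.93, 5.30 and 5.40 in spleen and at 5.89, 6.47, 6.09 and 6.31 in marrow, 2.08-fold higher in marrow (adjusted p = 0.033), and Spi1 (PU.1) was 2-fold higher in marrow. Both calls were lost without MI 2 weeks or MI 4 weeks, that of Cebpe also without the control pair and that of Spi1 without MI 1 week, and both with quantile normalisation. Cebpa, Cebpb and Gfi1, factors of the granulocyte branch, differed by -0.52 ± 0.24, -0.27 ± 0.19 and -1.04 ± 0.37 and did not pass. Most factors of macrophages and dendritic cells were higher in spleen, while Irf4 and Id2, which dendritic cell subsets need, differed by 0.47 ± 0.43 and 0.43 ± 0.24 and did not pass. Spic, which is required for red pulp macrophages, was at 3.80, 2.27, 2.70 and 2.30 in spleen and at -0.27, -1.13, -0.11 and -1.34 in marrow, 11.2-fold higher with a gap of over 2 units between the tissues (adjusted p = 0.00091). Nr1h3, the oxysterol receptor LXR alpha, was 6.06-fold higher in spleen, Batf3, a factor of cross-presenting dendritic cells, 4.86-fold, Maf 3.38-fold, Relb 2.53-fold and Runx3 2.95-fold. The other probe of Runx3 went the other way, at -0.57 with the marrow level higher in all 4 pairs, and the call was lost when the probes were averaged. Klf4 and Nr4a1, which monocytes need to become patrolling cells, were 2.07-fold and 1.84-fold higher in spleen, and Irf8, which favours monocytes and dendritic cells over neutrophils, 1.88-fold. In all, 11 of 18 factors were higher in spleen and 2 in marrow, with a median difference of 0.90, against 12.4% and 16% of all genes. The calls of Irf8 and Nr4a1 held only without MI 4 weeks and that of Klf4 was lost without MI 2 weeks. Without MI 2 weeks, 7 passed in spleen, and without MI 2 weeks or MI 4 weeks 0 in marrow.

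The monocyte genes that were higher in spleen included those of the patrolling, non-classical form. Cx3cr1, the fractalkine receptor, was at 2.78, 2.58, 2.01 and 2.50 in spleen against 1.67, 0.98, 0.61 and 1.49 in marrow, 2.43-fold higher with no overlap (adjusted p = 0.0056). Its other probe gave a difference of 0.67, with the spleen level higher in 3 pairs. Ace, which encodes angiotensin-converting enzyme, was 2.38-fold higher in spleen. Genes of classical monocytes gave smaller values on the probes used. Ccr2, the receptor for the chemokine that calls monocytes out of the marrow, was at 3.25, 3.56, 2.96 and 3.32 in spleen and at 2.96, 2.91, 2.36 and 2.67 in marrow, a difference of 0.55 ± 0.17 (adjusted p = 0.059), and F13a1, the coagulation factor chain of monocytes, differed by 0.18 ± 0.17, with -0.35 on its other probe. The list had 5 of 9 genes higher in spleen, 3 without MI 2 weeks, with a median of 0.88.

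Red pulp macrophages clear aged red cells and recycle their iron, and their genes formed one of the broadest sets higher in spleen. Cd5l, a secreted scavenger protein of tissue macrophages, was at 3.58, 3.08, 3.58 and 3.14 in spleen and at 1.25, 0.78, 0.91 and 0.51 in marrow, 5.58-fold higher (adjusted p = 0.00093). Mertk, which takes up dying cells, was 5.19-fold higher in spleen, the mannose receptor Mrc1 4.17-fold, the phosphatidylserine receptor Timd4 3.83-fold, Vcam1 3.68-fold, the macrophage adhesion receptor Adgre1 3.6-fold and Axl 2.8-fold. Hpgd, which breaks down prostaglandins, was at 1.17, -0.50, -0.65 and -0.28 in spleen against -2.36, -2.55, -2.83 and -2.50 in marrow, 5.64-fold higher (adjusted p = 0.0029). The spleen control array was the highest of the spleen arrays for Spic, Vcam1, Mrc1, Adgre1, Axl, Mertk, Timd4 and Hpgd, and the marrow levels did not reach the lowest spleen level except for Axl. Iron genes differed less: the iron exporter Slc40a1 was at 5.45, 4.89, 5.19 and 5.17 in spleen and at 5.00, 5.45, 5.07 and 5.04 in marrow, and the haem-degrading Hmox1 differed by 0.99 ± 0.30 (adjusted p = 0.051). Siglec1 and Marco, receptors of the marginal zone macrophages, differed by 0.64 ± 0.20 (-0.11 on the other probe of Siglec1) and 1.29 ± 0.65 and did not pass. Of 17 genes, 12 were higher in spleen and 5 did not pass, with a median difference of 1.63, and 9 to 12 passed with 1 pair left out, without Timd4 when MI 4 weeks was left out.

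Most complement genes were higher in spleen, while both receptors for the anaphylatoxins on the list were higher in marrow. C3, the central component, and Cfp (properdin) differed by -0.62 ± 0.20 (adjusted p = 0.065) and -0.12 ± 0.25 and did not pass. C2, which forms the C3 convertase of the classical pathway, was at 1.63, 0.75, 0.71 and 0.41 in spleen and at -2.48, -2.73, -2.53 and -2.62 in marrow, 11.1-fold higher in spleen with nearly even marrow levels (adjusted p = 0.00087). C1qc, a chain of the recognition molecule C1q, was 3.09-fold higher in spleen, C1qa 2.21-fold and C1qb 2.1-fold, Cfb, the factor B of the alternative pathway, 2.85-fold and C4b 2.65-fold. C5ar1, with which neutrophils sense C5a, was at -1.01, -0.05, -0.73 and 0.01 in spleen against 0.42, 1.07, 0.56 and 0.72 in marrow, 2.2-fold higher in marrow without overlap (adjusted p = 0.0093), and C3ar1 was 2.35-fold higher in marrow. The counts were 8 of 12 in spleen, with Cr2 among them, and 2 in marrow, with a median of 1.11. They fell to 4 and 0 without MI 2 weeks and to 5 and 1 without MI 4 weeks, with C1qa and C3ar1 lost in both cases, C5ar1 and C4b without MI 2 weeks, and C1qb without any 1 pair. Among 8 Fc receptor genes, Fcgr1, the high-affinity IgG receptor, was 2.15-fold and Fcmr, the IgM receptor of B cells, 9.1-fold higher in spleen. Fcgr2b, Fcgr3 and Fcgr4 differed by 0.15 ± 0.17, -0.81 ± 0.25 and 0.14 ± 0.18 and did not pass.

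Dendritic cell genes were higher in spleen for the conventional subsets and did not pass the test for plasmacytoid genes. Clec4a4, the receptor DCIR2 of the CD11b+ subset, was at 1.64, 1.18, 0.88 and 1.39 in spleen and at -2.19, -1.30, -1.90 and -2.66 in marrow, 9.78-fold higher (adjusted p = 0.0018). Cd209a, a lectin of the same subset, was 8.97-fold higher in spleen, Esam 3.13-fold, and the growth factor receptor Flt3 4.19-fold. Genes of the cross-presenting subset, which carries little CD11b, were higher as well. Xcr1, its chemokine receptor, was at -4.36, -4.43, -4.08 and -4.32 in spleen and not well above background on any marrow array. For such genes a bound is given, which sets the mean of the tissue with signal against, on each array of the other, the larger of the gene's own level and the lowest level that any probe well above background had. Xcr1 was at least 5.31-fold higher in spleen. Clec9a, the receptor of that subset for dead cells, was 2.1-fold higher. Ccr7, with which mature dendritic cells and naive T cells find lymphoid tissue, was at 2.76, 1.499, 2.96 and 3.16 against -0.39, -1.98, -0.90 and 0.33, 10-fold higher in spleen (adjusted p = 0.0009). Siglech and Ccr9, genes of plasmacytoid cells, differed by -0.14 ± 0.19 and 0.26 ± 0.30, and Zbtb46, the factor that sets conventional dendritic cells apart, by 0.24 ± 0.44. The other probe of Siglech gave 0.51, and that of Zbtb46, well above background on 5 of 8 arrays, gave 3.35 with the spleen level higher in all 4 pairs, so that the value of either gene depended on the probe. The list counted 10 of 13 genes higher in spleen, with a median of 2.23, and 9 or 10 with 1 pair left out, without Clec9a when MI 4 weeks was left out.

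MHC class II molecules present peptides to CD4 T cells. The classical chains bind the peptide, H2-DM loads it, H2-O restrains H2-DM, and Ciita is the coactivator that switches the genes on. It does so at promoters that carry an X box and a Y box. The promoters of 3 genes are shown because they hold both motifs on the gene's strand, in the 150 bases before the start site of the RefSeq gene (assembly GRCm38.p6, C57BL/6J reference, plus strand). AGCAAC, a core of the X box, and ATTGG, the CCAAT motif of the Y box, are in capitals.
H2-Eb1, chr17:34305717-34305866: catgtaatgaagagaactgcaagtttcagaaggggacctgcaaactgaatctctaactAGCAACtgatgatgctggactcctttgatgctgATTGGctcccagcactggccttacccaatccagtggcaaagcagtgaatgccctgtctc
H2-Oa, chr17:34092229-34092378: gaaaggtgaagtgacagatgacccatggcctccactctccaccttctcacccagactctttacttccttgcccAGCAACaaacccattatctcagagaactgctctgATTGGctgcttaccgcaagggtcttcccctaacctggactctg
H2-Ob, chr17:34238755-34238904: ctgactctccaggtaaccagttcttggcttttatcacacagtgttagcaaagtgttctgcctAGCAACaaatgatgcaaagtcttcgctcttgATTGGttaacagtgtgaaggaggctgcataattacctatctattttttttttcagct
The X core began at positions -92, -77 and -88 relative to the start site, in this order of genes, and the Y box followed it after 27, 28 and 25 bases. Of 10 members of the list, 7 had a promoter window, and these 3 held AGCAAC followed by ATTGG within 40 bases. The same arrangement was found on the gene's strand in 96 of 32851 promoter windows of 300 bases (0.292%), AGCAAC on either strand in 14.8% and ATTGG on either strand in 37.4%. A match of letters is no measured binding site, and the mice were of another strain than the reference.

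The genes with these promoters had unequal differences. H2-Oa, the alpha chain of H2-O, was at 1.49, 1.58, 2.09 and 1.48 in spleen and at -1.93, -2.93, -2.31 and -2.02 in marrow, 15.6-fold higher in spleen (adjusted p = 0.00087). Its partner H2-Ob was at 2.67, 1.56, 2.76 and 2.39 against -0.11, -3.47, -0.63 and -1.13, 12.8-fold higher (adjusted p = 0.0021), although a second probe of H2-Ob gave a difference of 0.98. H2-Eb1, the classical beta chain, was at 5.05, 5.21, 5.32 and 5.30 against 4.43, 4.53, 4.12 and 4.37, 1.81-fold higher (adjusted p = 0.02). None of these 3 overlapped between the tissues, and the call of H2-Eb1 was lost without MI 2 weeks or MI 4 weeks. Ciita was at 3.84, 3.94, 3.79 and 4.06 in spleen and at 0.58, 0.68, 0.70 and 0.90 in marrow, 9.13-fold higher and nearly even within each tissue (adjusted p = 0.00063). H2-DMb2, H2-DMb1 and H2-DMa were 6.63-fold, 3.24-fold and 2.22-fold higher in spleen, and the classical alpha chain H2-Aa 4.34-fold. H2-Ab1 was the smallest difference among the members named, 0.60 ± 0.18 (adjusted p = 0.054). In all, 8 of 10 genes were higher in spleen, with a median of 1.91, and 7 or 8 with 1 pair left out.

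Chemokine receptors were mostly higher in spleen, Ccr6 by the largest difference of the list. Ccr6, the CCL20 receptor of B cells and of dendritic cells, was at 2.24, 1.46, 2.70 and 2.06 in spleen and at -1.99, -3.91, -3.27 and -2.82 in marrow, 34.7-fold higher in spleen (adjusted p = 0.00077). Cxcr5, which leads B cells to follicles, was 15.3-fold higher, Cxcr6 6.96-fold, the eotaxin receptor Ccr3 4.11-fold and Cxcr3 2.96-fold. The marrow retention receptor went the other way. Cxcr4, which holds neutrophils and progenitors in the marrow, was at 2.62, 2.53, 2.48 and 3.54 in spleen and at 3.33, 4.45, 3.67 and 4.32 in marrow, 2.22-fold higher in marrow (adjusted p = 0.019), with 1 marrow array below the spleen array of 4 weeks. Its ligand Cxcl12, made by marrow stromal cells, was at -4.15, -5.56, -4.16 and -3.98 in spleen and at 1.79, -0.68, 1.66 and 2.42 in marrow, 54.2-fold higher in marrow (adjusted p = 0.00054). The 1-week array was the lowest in both tissues. Cxcr2 and Ccr1 differed by -0.46 ± 0.26 and -0.57 ± 0.25 and did not pass. Of 14 receptors, 9 were higher in spleen and 1 in marrow, with a median of 1.42, and the calls of Cxcr4 and Cxcr3 were lost without MI 2 weeks or MI 4 weeks.

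The chemokines divided by gene. Ccl5, which T and natural killer cells make, was at 4.33, 3.89, 4.70 and 4.48 in spleen and at 0.77, 0.05, 1.05 and 0.80 in marrow, 12.8-fold higher in spleen (adjusted p = 0.00054). Ccl24, an eotaxin of alternatively activated macrophages, was 4.94-fold higher in spleen, the interferon-induced Cxcl9 and Cxcl10 3.65-fold and 3.5-fold, the neutrophil attractant Cxcl1 3.47-fold and the membrane-bound Cxcl16 2.09-fold. The monocyte attractants Ccl7 and Ccl8 were 4.59-fold and 4.52-fold higher in marrow, Ccl12 2.68-fold and Ccl6 1.87-fold. Ccl2, at 0.15, 2.11, -0.33 and 2.60 in spleen and 0.92, 2.61, 0.38 and 2.22 in marrow, varied more between the arrays of a tissue than between the tissues, and neither it nor Ccl3, Ccl4 or Cxcl2 passed. Among 16 chemokines, 6 were higher in spleen and 4 in marrow, against 12.4% and 16% of all genes, with a median of -0.08. Without MI 2 weeks or MI 4 weeks Ccl7 and Ccl8 alone passed in marrow, Ccl6 was lost without MI 1 week and Ccl12 without the control pair as well, and Cxcl1 was lost without MI 2 weeks and Cxcl16 without MI 4 weeks.

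**Figure D3:**
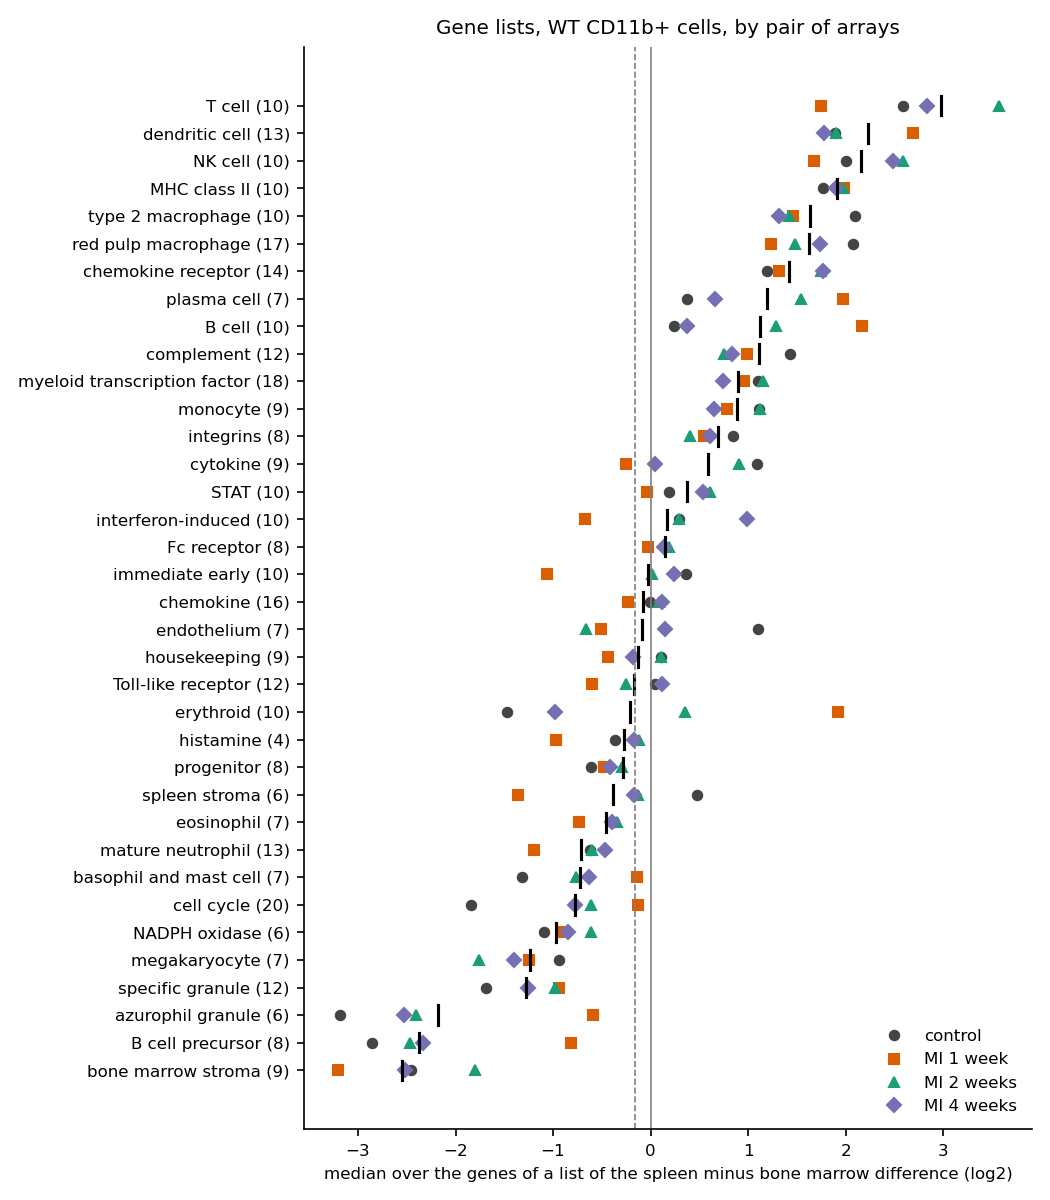
Median spleen minus marrow difference (horizontal axis, log2) over the genes of each list (vertical axis, with the number of genes tested in brackets), one point for each of the 4 pairs of arrays. The black tick is the median over the list of the difference fitted to all pairs, and the dashed line the median over all genes, -0.16; the azurophil, B cell precursor and marrow stroma lists lie left of it in every pair and the MHC class II, dendritic, NK and T cell lists right of it.

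Genes of lymphocytes were higher in spleen by large folds. For natural killer cells, some of which carry CD11b, Klrd1 (CD94) was at -0.01, -1.73, -0.09 and -0.43 in spleen and at -3.27, -5.32, -3.52 and -4.04 in marrow, 11.1-fold higher (adjusted p = 0.00063). The granule proteases Gzma and Gzmb were 12.6-fold and 6.25-fold higher, the receptor Ncr1 (NKp46) 7.38-fold and the factor Eomes 4.79-fold. Prf1 (perforin) and Nkg7 differed by 0.25 ± 0.21 and -0.02 ± 0.23. For T cells, which mostly lack CD11b, Cd3g was at 0.35, -2.15, 0.70 and 0.50 in spleen and at -4.05, -3.70, -3.52 and -2.40 in marrow, 9.64-fold higher (adjusted p = 0.0057). The adhesion receptor Cd2 and the scavenger-like receptor Cd5 were both 9.9-fold higher, Cd8a 8.11-fold and the kinase Lck 7.72-fold, while Cd3d was 2.82-fold higher in marrow and Cd3e and Cd4 did not pass. In all, 7 of 10 natural killer genes and 7 of 10 T cell genes were higher in spleen, with medians of 2.16 and 2.98, and 1 T cell gene in marrow. On the array of 1 week the spleen level was the lowest of the 4 for 7 of the natural killer genes and 9 of the T cell genes. The mean level over the T cell list was -0.87 to 0.87 on the spleen arrays and -2.16 to -1.76 on the marrow arrays, and over the natural killer list -1.20 to 0.02 and -2.80 to -2.20. All genes of both lists were well above background on the 4 spleen arrays, and the part of such cells in the differences of genes they share with myeloid cells was not tested.

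B cell genes differed by stage. Cr2, the complement receptor CD21 of mature B cells, was at 1.28, 0.97, 2.83 and 1.91 in spleen and at -1.97, -1.87, -2.72 and -2.49 in marrow, 16.1-fold higher in spleen (adjusted p = 0.0026). Ms4a1 (CD20) was at 2.81, 2.45, 4.25 and 3.39 against 1.09, -2.84, 0.77 and 0.49, 10.2-fold higher, and Cd79a, a chain of the B cell receptor, 1.95-fold, a call that held only without MI 1 week. Cd79b, which precursors carry too, differed by 1.47 ± 0.50 (adjusted p = 0.07). The precursor genes were higher in marrow. Vpreb1, part of the surrogate light chain, was at -3.62, -3.52, -2.65 and -3.16 in spleen and at 1.09, -2.38, 0.75 and 1.06 in marrow, 10.3-fold higher in marrow (adjusted p = 0.0085). Its partner Igll1 was 12-fold higher, Dntt, which adds bases at antigen receptor joints, 4.44-fold, and Rag2, which was not well above background in spleen, at least 3.86-fold. The marrow array of 1 week stood more than 2 units below the other marrow arrays for Vpreb1, Igll1, Rag2, Ms4a1 and Ebf1. Il7r, the interleukin 7 receptor of lymphoid progenitors and T cells, was 2.79-fold higher in spleen, a call lost without MI 2 weeks. Of 10 B cell genes 3 were higher in spleen and 7 did not pass, with a median of 1.12, and of 8 precursor genes 1 was higher in spleen and 5 in marrow, with a median of -2.38. For plasma cells, the antibody joining chain Jchain was 10.3-fold, the receptor Tnfrsf17 (BCMA) 4.52-fold and the factor Prdm1 2.28-fold higher in spleen, 3 of 7 genes, while Xbp1, which expands the secretory apparatus, differed by 0.26 ± 0.17.

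No erythroid gene of the 10 tested passed. Klf1, the master factor of red cell precursors, was at -0.58, 1.69, 1.68 and -0.34 in spleen and at 2.19, -0.39, 1.25 and 1.60 in marrow, so that the sign of the difference changed between pairs. The list median was -1.47 in the control pair, 1.93 and 0.35 at 1 and 2 weeks and -0.98 at 4 weeks. At an unadjusted p under 0.05 in the limma fit, 2 of the 10 passed, against 11200 of all 26244 genes tested. Genes of megakaryocytes and platelets were higher in marrow for 6 of 7 members, with a median of -1.23. Pf4, a platelet chemokine, was at 2.18, 0.41, 0.84 and 1.43 in spleen and at 3.12, 2.62, 2.71 and 3.72 in marrow, 3.54-fold higher (adjusted p = 0.0056). Ppbp, another one, was 3.72-fold higher, and without MI 2 weeks or MI 4 weeks 3 members passed. Of 7 eosinophil genes 3 were higher in marrow and 1 in spleen (Ccr3), against 16% and 12.4% of all genes. The other 3 did not pass, and the median was -0.46. Prg2 (major basic protein) was at -2.49, -0.51, -2.60 and -1.01 in spleen and at 1.91, 1.55, 1.51 and 1.32 in marrow, 9.34-fold higher (adjusted p = 0.0046), and Epx (eosinophil peroxidase) 8.68-fold, whereas the granule ribonuclease Ear1 differed by -0.46 ± 0.17 (adjusted p = 0.093). Of 7 basophil and mast cell genes 2 were higher in marrow, 1 in spleen (Kit) and 4 did not pass, with a median of -0.72. Over all genes 16% were higher in marrow and 12.4% in spleen, not far from these counts. The protease Prss34 was 4.83-fold and Cpa3 2.15-fold higher in marrow. Both calls were lost without MI 4 weeks, and that of Cpa3 also without the control pair or MI 2 weeks. The basophil protease Mcpt8 differed by -1.12 ± 0.41 (adjusted p = 0.087).

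Several of the largest differences were found in genes known from cells that carry no CD11b, and some of these genes were not well above background in the other tissue. The largest differences were taken among called genes with a symbol, well above background on all 4 arrays of the higher tissue. Higher in marrow, the 10 largest of these were Igfbp5, Cxcl12, Ebf3, Islr, Adipoq, Col2a1, Timp3, Cntnap5b, Cyp1b1 and Olfr716. Igfbp5, which encodes an insulin-like growth factor binding protein of stromal cells and osteoblasts, was at -7.30, -8.42, -8.83 and -8.56 in spleen and at -0.12, -2.38, 0.79 and 1.64 in marrow. It was not well above background on any spleen array and at least 111-fold higher in marrow (adjusted p = 0.0014). Adipoq (adiponectin), which marks the adipocyte-lineage stroma of the marrow, was 26.1-fold higher by the fit and well above background on 2 of the 4 spleen arrays, Ebf3, a factor of the same reticular cells, at least 11-fold, Timp3, a metalloproteinase inhibitor, 16.8-fold and Col2a1, the cartilage collagen, at least 7.12-fold. A list of 9 marrow stroma genes had 6 higher in marrow, with a median difference of -2.55. The type I collagen genes Col1a1 and Col1a2 were 7.71-fold and 5.86-fold higher and Sparc 2.31-fold (lost without any 1 pair but the control), whereas Kitl and Alpl differed by -0.13 ± 0.26 and 1.13 ± 0.49. The probe used for the leptin receptor Lepr gave -0.40 ± 0.44, while other probes of the gene lay between -3.62 and -0.73. The mean level over the list was -4.17 to -3.01 on the spleen arrays and -1.83 to -0.15 on the marrow arrays, lowest in both tissues at 1 week.

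Genes of spleen stroma gave no such set. Cxcl13, the B cell follicle chemokine, was 3.35-fold higher in spleen and Pdpn (podoplanin) 7.38-fold higher in marrow, and the spleen-determining factors Tlx1 and Nkx2-5 differed by -0.43 ± 0.46 and 0.64 ± 0.36. Of 7 endothelial genes, 2 were higher in spleen and 3 in marrow, against 12.4% and 16% of all genes. Without MI 2 weeks or MI 4 weeks 1 passed in marrow. Stab2, the hyaluronan scavenger receptor of sinusoids, was at 2.85, 1.01, 1.00 and 0.87 in spleen and at -0.27, -1.62, -0.72 and -0.89 in marrow, 4.95-fold higher in spleen (adjusted p = 0.0035). Cdh5, the cadherin of endothelial junctions, was 2.03-fold higher in marrow, a call lost without MI 2 weeks or MI 4 weeks, and Pecam1 and Kdr differed by 0.22 ± 0.27 and -0.09 ± 0.43, the latter on the probe used, while its other probe gave 1.04 with the spleen level higher in all 4 pairs.

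Higher in spleen, the 10 genes with the largest difference by the same rule were Gp2, Adam23, Amy2a5, Raver2, Tdrp, Sucnr1, Pcolce2, Slc44a5, Serpina4-ps1 and Smoc2. Gp2, a glycoprotein of pancreatic zymogen granules and of epithelial cells that sample gut bacteria, was at 0.20, 0.20, 0.06 and 0.24 in spleen and not well above background on any marrow array. It was at least 115-fold higher in spleen (adjusted p = 0.00054), although its second probe gave a difference of 3.41. Adam23, an integrin-binding membrane protein, was at least 77.5-fold higher, the RNA-binding Raver2 57.3-fold, Pcolce2, which aids collagen processing, 50.1-fold (both well above background on 1 of the 4 marrow arrays) and Sucnr1, the succinate receptor of macrophages and dendritic cells, at least 21.1-fold. Serpina4-ps1 is a pseudogene, so that its probe may also detect related serpins. Amy2a5, which encodes pancreatic amylase, was at 0.93, -1.995, -1.27 and -0.27 in spleen and at -7.20, -6.68, -6.71 and -6.19 in marrow, 65.9-fold higher by the fit. It was well above background on 2 of the 4 marrow arrays, and its other probe gave a difference of 2.001. Because Amy2a5 stood among them, a list of pancreatic acinar genes was drawn up after these values were seen. Of its 21 members tested, 9 were higher in spleen, Amy2a5 itself among them, against 12.4% of all genes. Without MI 2 weeks or MI 4 weeks 5 passed, and the median difference was 0.65. A list drawn up in this way cannot test whether such genes were higher in spleen. Try4 and Try5, near-identical trypsin genes whose probes cannot be told apart with certainty, were 18.6-fold and 8.25-fold higher, the lipase Pnlip at least 12.1-fold and the carboxypeptidases Cpa1 and Cpb1 3.22-fold and 3.27-fold, both lost without MI 2 weeks or MI 4 weeks. Cel, Clps and Ctrl, products of the same cells, differed by -0.03 ± 0.56, 0.04 ± 0.51 and -0.17 ± 0.41. The mean level over the list was -3.72 to -2.13 on the spleen arrays, highest in the control, and -4.72 to -4.11 on the marrow arrays, and its part in other differences was not tested.

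**Figure D4:**
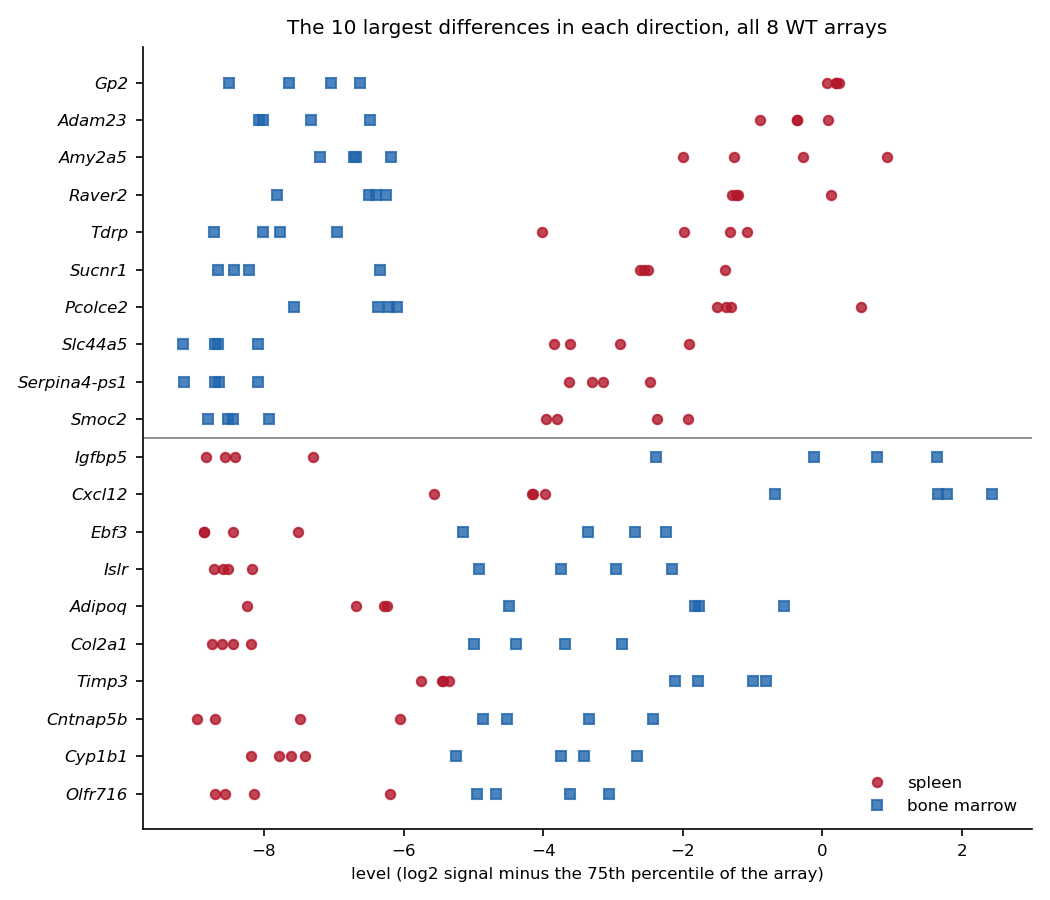
Levels on the 8 WT arrays (horizontal axis, log2 signal minus the 75th percentile of the array) of the 10 genes with the largest difference in each direction (vertical axis), spleen as red circles and bone marrow as blue squares. No gene overlaps between the tissues, and the lowest level of any probe well above background was -7.34 to -6.19 on these arrays, so that many of the low values lie at or under it.

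Genes of macrophages exposed to interleukin 4 or 13, the cytokines that act through STAT6, were mostly higher in spleen. Retnla, a secreted factor of such macrophages, was at 0.23, -0.97, -0.80 and -1.46 in spleen and at -2.54, -2.90, -2.95 and -2.72 in marrow, 4.08-fold higher in spleen without overlap (adjusted p = 0.0043). Pdcd1lg2 (PD-L2) was 8.37-fold higher, Clec10a, a galactose lectin, 1.63-fold (adjusted p = 0.0499, lost without any 1 pair), and Arg1, which turns arginine into ornithine and was not well above background in marrow, at least 3.05-fold. Il4ra, the receptor chain for both cytokines, was 2.37-fold higher in spleen, a call that held only without MI 1 week, and its other probe gave a difference of -0.54. Chil4 was 2.65-fold higher in marrow, a call lost without MI 2 weeks, and Mgl2 differed by -0.28 ± 0.21. Of 10 genes 7 were higher in spleen and 1 in marrow, with a median of 1.64. Stat6 itself was at 2.38, 2.79, 2.75 and 2.90 in spleen and at 2.78, 3.70, 2.91 and 3.20 in marrow, a difference of -0.44 ± 0.20 (adjusted p = 0.14). Its other probes gave -0.15 and -0.84. Among the STAT genes and their feedback inhibitors tested, Socs2 was 4.33-fold and Cish 1.7-fold higher in spleen, the call of Cish lost without any 1 pair but the control, and Stat3, Stat5b and Socs3 differed by -0.31 ± 0.19, -0.16 ± 0.20 and 0.24 ± 0.18.

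Hdc, the histamine-forming enzyme that the study deletes in other mice, was at 4.54, 4.73, 4.31 and 4.83 in spleen and at 5.10, 5.51, 4.75 and 5.11 in marrow. The difference of -0.51 ± 0.18 did not pass (adjusted p = 0.075), and 1 spleen level lay above the lowest marrow level. Hnmt, which inactivates histamine, was 2.1-fold higher in marrow, a call lost without the control, MI 1 week or MI 2 weeks. The histamine receptor Hrh1 gave -0.03 ± 0.17 on the probe used and 4.88 on another probe that was well above background on 7 of 8 arrays, so that its direction depended on the probe. Among 9 cytokine genes, Il18 was at 3.23, 2.61, 2.23 and 1.95 in spleen and at 0.96, 0.96, 0.68 and 0.10 in marrow, 3.56-fold higher in spleen (adjusted p = 0.0024). Tgfb2 was 3.89-fold and Il1a 2.68-fold higher in spleen, and Tnf 1.88-fold higher in marrow, and Il18 alone kept its call with any 1 pair left out. Il1b, the cytokine of activated neutrophils and monocytes, was at 5.70, 5.69, 5.74 and 5.96 in spleen and at 5.49, 5.94, 5.35 and 6.23 in marrow, and Il6 and Tgfb1 differed by 0.73 ± 0.31 and -0.59 ± 0.26.

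Interferon-induced genes differed more between the pairs than between the tissues. Ifit3 was at 1.92, 5.09, 4.58 and 3.32 in spleen and at 1.64, 5.86, 4.15 and 2.22 in marrow, highest at 1 week and lowest in the control in both tissues, and its tissue difference was 0.26 ± 0.31. Irf7 and Usp18 followed the same order, with differences of 0.09 ± 0.19 and 0.22 ± 0.25. Ifi44 alone of 10 genes passed, 2.42-fold higher in spleen (adjusted p = 0.0043). Each condition had 1 pool in each tissue, so that the change with time was not tested. Immediate early genes, which respond within minutes to handling and adhesion, gave 1 call of 10, Ier2, 2.53-fold higher in marrow and lost without MI 2 weeks or MI 4 weeks. Fos and Dusp1 were at 6.23 and 6.28 on the marrow array of 1 week against 4.79 to 5.55 and 4.37 to 5.64 on the other marrow arrays. No gene of 9 housekeeping genes passed, and 2 had an unadjusted p under 0.05, against 11200 of all 26244 genes tested. Actb, Ppia and Rplp0 differed by -0.18 ± 0.21, -0.04 ± 0.17 and 0.08 ± 0.18, and Gapdh by -0.63 ± 0.20 (adjusted p = 0.056), with -1.91 to -1.12 on its other probes.

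The difference was not equally large in the 4 pairs. Across genes, the differences of any 2 pairs correlated at 0.467 (control and 1 week) to 0.745 (1 week and 2 weeks). The azurophil granule list had medians of -3.19, -0.59, -2.41 and -2.53 in the control, 1-week, 2-week and 4-week pairs, the B cell precursor list of -2.85, -0.82, -2.47 and -2.33. In the 1-week pair the spleen array was the highest spleen array for azurophil genes, and the marrow array the lowest marrow array for precursor and most erythroid genes. The B cell list had medians of 0.24, 2.17, 1.29 and 0.38. The MHC class II list stood nearly even, between 1.77 and 1.99.

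The same tissue difference was read in the pairs of the other genotypes, which were on other arrays from other mice. HDC-KO had complete pairs at 1, 2 and 4 weeks after MI and STAT6-KO in the control and at 2 and 4 weeks. Hdc was at 1.67 to 2.78 on the 7 HDC-KO arrays and at 4.31 to 5.51 on the 8 WT arrays, whereas the probe for Stat6 was at 1.76 to 2.44 on the 7 STAT6-KO arrays and at 2.38 to 3.70 on the WT arrays, which overlap. Where the Stat6 probe lies relative to the deleted part is not given in the sources used here. Of 3264 genes called higher in WT spleen, 96.4% were higher in spleen in all 3 HDC-KO pairs and 91.3% in all 3 STAT6-KO pairs, against 30.8% and 24.6% of all genes. Of 4200 genes called higher in WT marrow, 77.7% and 89.2% were higher in marrow in all 3 pairs, against 32.6% and 41.2% of all genes. The MHC class II list had medians of 2.13 to 2.51 in the HDC-KO pairs and 2.10 to 2.99 in the STAT6-KO pairs, and the azurophil list of -3.77 to -2.51 and -5.15 to -2.95. The cell cycle list, at -1.85 to -0.13 in WT, was at -1.89 to -1.61 in HDC-KO and at -2.40 to -1.68 in STAT6-KO.

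The tissue difference itself was compared between genotypes in a fit over all 10 pairs. It differed from WT for 278 of 27655 genes in HDC-KO (1.01%), 217 with a larger spleen minus marrow value and 61 with a smaller one, and for 97 genes in STAT6-KO (0.351%), 11 and 86. At an unadjusted p under 0.05 the counts were 4108 and 3794. Each slide held 1 genotype and 1 tissue, so these differences cannot be told apart from those between slides. Nor can they be told apart from the time points, which were not the same in the 3 genotypes. The counts of 278 and 97 changed when the pairs of 1 time point were left out in all genotypes together. Without MI 4 weeks no gene passed in either genotype, and without the control 54 passed for HDC-KO and 3 for STAT6-KO. Without MI 1 week the counts were 75 and 84, and without MI 2 weeks 364 and 0. Among the genes of all lists, only Ngp passed, for STAT6-KO. Its WT levels were 4.65, 5.63, 5.00 and 5.59 in spleen and 5.80, 6.41, 6.18 and 6.70 in marrow, and the tissue difference in STAT6-KO minus that in WT was -1.67 (adjusted p = 0.019). For Elane, Mpo and Mmp9 the same quantity was -1.93 to -0.33 over both genotypes, and none passed.

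**Figure D5:**
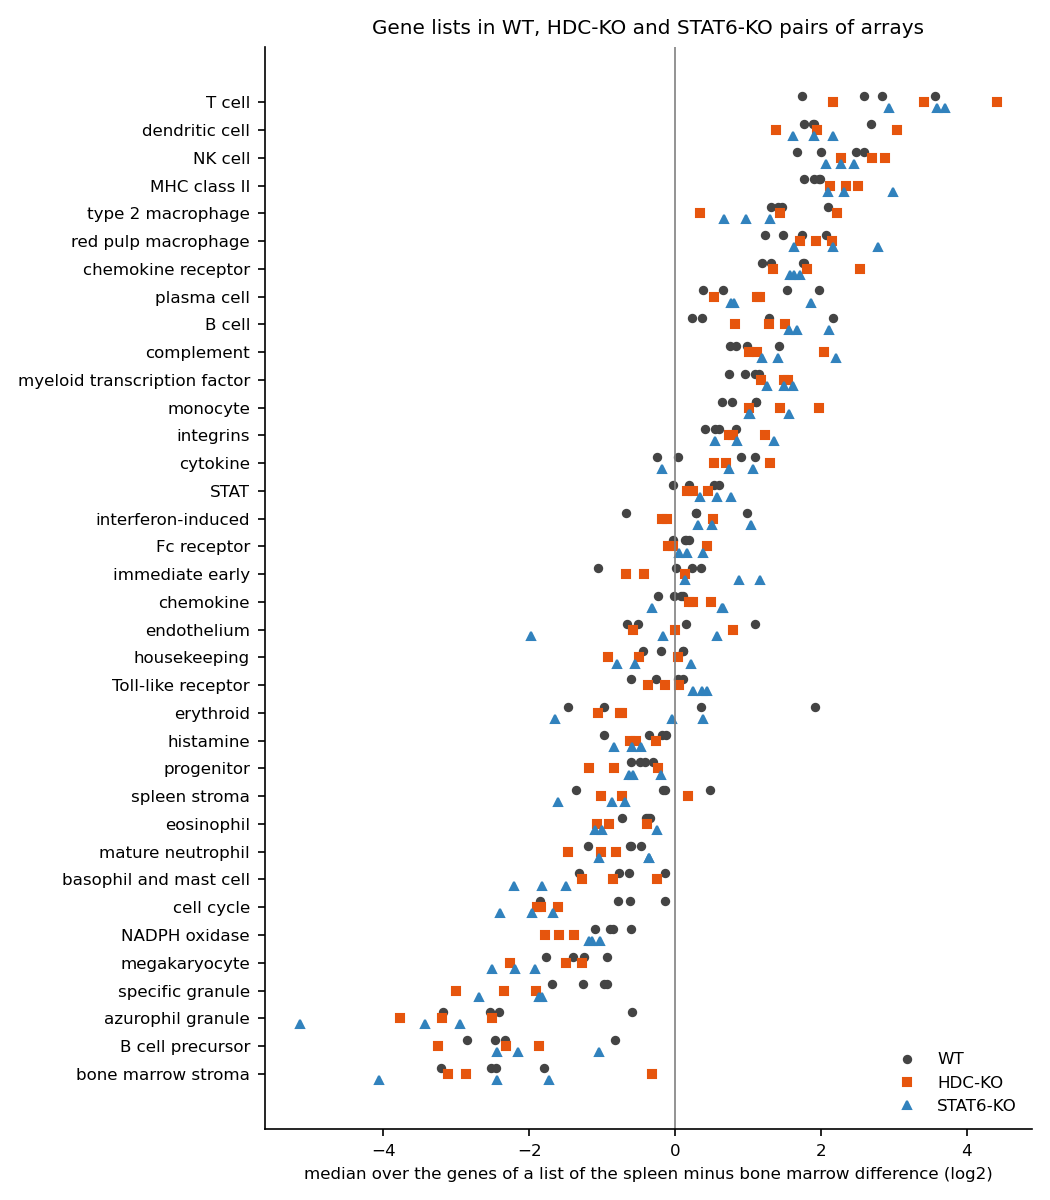
Median spleen minus marrow difference (horizontal axis, log2) over the genes of each list (vertical axis) in each complete pair of arrays, 4 pairs of WT (grey circles), 3 of HDC-KO (orange squares) and 3 of STAT6-KO (blue triangles). The lists at the top and bottom lie on the same side of 0 in all 10 pairs, and the cell cycle list spans -1.85 to -0.13 in WT and -2.40 to -1.61 in the other genotypes.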

How the data were processed

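RNA of CD11b+ cells was measured on single-colour Agilent mouse arrays labelled with Cy3. The authors deposited, per the file headers, processed signal intensity values from Agilent Feature Extraction 11.0.1.1, in which the background is already subtracted; the submitters' processing notes name GCRMA, which was not used here. Of 24 arrays, 22 had full tables of 44397 spots, and 2 short tables of 84 and 229 spots were not used. All 8 WT arrays were full. The members and gene lists were chosen with earlier results of these data known. The named genes were those of the lists, the 10 largest called differences in each direction (genes with a symbol, well above background on all 4 arrays of the higher tissue) and, for each other genotype, the 3 largest called differences of the tissue effect in each direction.

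Control spots and outlier spots (1024 over the 8 arrays) were left out, the deposited intensity was put on the log2 scale, centred on each array's own 75th percentile, and spots of a probe were averaged, leaving 39429 probes from 43020 spots, of which 27234 carried a symbol. The probe with the highest mean level stood for its gene. Genes well above background on at least 2 of the 8 arrays were tested with limma 3.58.1 in R 4.3.3 (lmFit and eBayes). The pair was a block, with Benjamini-Hochberg adjustment over all genes tested. The same fit was run on simulated levels with known changes. That run left out the scaling of the arrays, so it cannot vouch for the calls made here. Deviations of the 2 arrays of a pair from their tissue means correlated at 0.133 to 0.322 in all 4 pairs. Those of a spleen and a marrow array of different conditions correlated at -0.392 to 0.178, a range that includes the 0.133 of the control pair. The condition label is the source of the pairing. An exact permutation test of 4 pairs cannot give a two-sided p under 0.125. Intensities carry no counts, so the number of arrays limits the precision. Promoter sequences came from RefSeq (GRCm38.p6), read with Python 3.11.15; figures were drawn with matplotlib 3.10.9. Alternatives were other background corrections, scalings, filters, probe rules and fits, and leaving out each pair. Some results are not reported here.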

Additional observations from a re-analysis of the deposited data

Results flagged for a closer look

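In groups of 4 values, a gap as wide as those listed here arises by chance in about 1 of 20 groups; 16 of 266 named genes and 2 of 37 list medians had 1 pair that far from the other 3, on the scale of the spleen minus marrow difference. The control pair stood apart for Hpgd, at 3.54 against 2.05 to 2.22, for C1qb, at 2.06 against 0.64 to 0.83, for Ccnb1, at -2.45 against -0.86 to -0.54, for Tlr5, at -1.05 against -1.99 to -1.87, and for Ccr2, at 0.29 against 0.60 to 0.65. The pair of 1 week stood apart for Dpp4, an ectopeptidase of dendritic and T cells, at 3.54 against 1.84 to 2.10, for Adgre1, at 1.23 against 2.00 to 2.13, for Csf3r, at -0.56 against -0.08 to -0.01, for Cd3e, at -0.93 against 1.48 to 1.64, for Hoxa9, at -0.86 against 0.11 to 0.31, for Ccl3, at -0.83 against -0.15 to -0.02, and for Ear1, at -0.73 against -0.39 to -0.35. The same pair stood apart in the median of the dendritic cell genes, at 2.69 against 1.78 to 1.90, and of the eosinophil genes, where Ear1 is the median gene, at the same values as Ear1. The pair of 2 weeks stood apart for Tnfrsf17, at 3.21 against 1.73 to 1.98, for H2-Ab1, at 0.97 against 0.43 to 0.50, and for Ltf, at -0.014 against -0.58 to -0.49. The pair of 4 weeks stood apart for Tgfb1, at -1.488 against -0.38 to -0.23. Each of these values comes from 1 spleen and 1 marrow pool.

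Of the genes whose tissue difference differed between a knockout and WT by the test of that difference in limma (adjusted p under 0.05), the 3 largest values in each direction and genotype are given, and Ngp as the only such gene of the lists. The values are the difference in the knockout minus that in WT, and genotype and slide cannot be told apart in them. In HDC-KO they were 4.36 for Olfr1129, 4.33 for Six4 and 3.78 for Mdh1b, and -4.60 for Trim30e-ps1, -3.90 for Npas1 and -3.23 for Tmprss11g. In STAT6-KO they were 2.74 for Cyp3a44, 2.51 for Olfr819 and 2.51 for Btnl5-ps, and -4.49 for Mageb16, -4.18 for Wfdc6b, -3.75 for Serpina3m and -1.67 for Ngp. Ngp is a protein of neutrophil granules.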

How the results depend on the processing

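No called gene named in the text changed direction under the alternatives tried. Of the 182 named genes that were called, 121 kept the call with any 1 pair left out, and 137 under every one of the 11 other settings in which they were tested; for some genes these were 9 or 10, since filters on dim probes left them out. The counts of genes higher in spleen (3266) and in marrow (4202) ran from 1559 to 2618 and from 1404 to 3327 with 1 pair left out, lowest without MI 2 weeks; fewer arrays enter such fits. With normexp background correction, applied to the median signal, they were 1997 and 3076, by the methods' t-test at an unadjusted p under 0.05 with a fold over 2 they were 1990 and 2292 (2485 and 3156 after Benjamini-Hochberg adjustment), and with the adjusted p and a fold over 2 they were 2132 and 2400. Quantile normalisation made the counts nearly equal, 3810 and 3813. Without the replicate block, 2958 and 4048 genes passed, of which 2730 and 3611 were shared with the paired fit. List medians moved by more than their spread over the pairs in 12 cases and by less in 543, among them T cell genes at 1.69 and natural killer genes at 1.48 under normexp.

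The difference of some genes that did not pass the test changed sign. With normexp it was -0.012 for Clps, 0.073 for Kdr, -0.020 for Nkx2-5, -0.064 for Irf4 and 0.095 for Pcna. With quantile normalisation it was 0.0055 for Cel, 0.023 for Hoxa9, 0.016 for Hrh1, 0.043 for Nkg7, 0.015 for Pcna and 0.067 for Ppia. With the array median it was 0.025 for Cel, 0.0098 for Hoxa9, 0.032 for Hrh1, 0.036 for Nkg7 and 0.016 for Ppia. With the percentile over bright probes it was 0.00925 for Cel, 0.016 for Hrh1 and 0.020 for Nkg7. With a gene's probes averaged it was -0.087 for F13a1, 1.49 for Hrh1, 0.48 for Kdr and 0.19 for Siglech. With 1 pair left out it ran from -0.76 to 0.40 for Cel, -0.33 to 0.055 for Cfp, -0.60 to 0.44 for Clps, -0.62 to 0.14 for Ctrl, -0.40 to 0.17 for Cxcl2, -0.48 to 0.12 for Dusp1, -0.32 to 0.13 for Fos, -0.17 to 0.22 for Hoxa9, -0.10 to 0.020 for Hrh1, -0.019 to 0.61 for Ifit3, -0.10 to 0.12 for Il1b, -0.064 to 0.82 for Irf4, -0.022 to 0.19 for Irf7, -0.51 to 0.35 for Kdr, -0.36 to 0.093 for Kitl, -1.43 to 0.19 for Klf1, -0.022 to 0.44 for Meis1, -0.22 to 0.17 for Nkg7, -0.14 to 0.092 for Pcna, -0.081 to 0.44 for Pecam1, -0.096 to 0.017 for Ppia, -0.0096 to 0.14 for Rplp0, -0.10 to 0.24 for Slc40a1, -0.88 to 0.13 for Tlx1 and -0.30 to 0.58 for Zbtb46.

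The comparison between genotypes depended on the settings, and the cause was not tested. For HDC-KO the count of 278 was 0 with normexp, 530 with quantile normalisation, 488 with the array median, 161 with a floor under dim signals, 41 among genes well above background on all arrays, 519 without the replicate block and 0 to 364 with 1 time point left out. For STAT6-KO the count of 97 was 4 with normexp, 128 with quantile normalisation, 120 with the array median and 125 with the floor. It was 89 among genes well above background on all arrays, 337 without the block and 0 to 84 with 1 time point left out. The slide as a random block was not run, since each slide held 1 genotype and 1 tissue. At the low end of the signal, 205 genes called higher in spleen and 318 called higher in marrow were not well above background on any array of the other tissue, so that only a lower bound of their fold was measured.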
